A study of Mus musculus with 27 samples.

Results

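The livers described here come from 19 of the 27 mice of the series, and the question asked of them is where mice moved from calorie restriction to a medium-fat diet went past both parent diets instead of lying between them. For each gene, the mean of the 7 switched mice (CR-MF) was set against the midpoint of the means of 5 calorie-restricted mice (CR) and 7 medium-fat mice (MF), as a single contrast. A gene is called outside when its CR-MF mean also lies above both or below both of the other means. All animals were male C57BL/6J mice, an inbred laboratory strain, with livers taken at 28 months of age. Diets began at 9 weeks. CR mice ate 30% less than controls for life, MF mice had free access to a diet with 25% of its energy as fat, and CR-MF mice were restricted until 24 months and then spent 4 months on the MF diet, given in rising amounts at first and then freely. The 8 mice on the control diet AIN-93W (C) entered the estimate of the spread but no contrast. All mice were fasted for 4 h, given carboxymethyl cellulose solution by gavage and fasted for another 6 h, and CR mice alone got part of their daily portion shortly before the first fast. The part of this difference in feeding was not tested.

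Each liver was hybridised to 1 Affymetrix Mouse Gene 1.1 ST array, and values are log2 intensities, so that 1 unit is a doubling. The median log2 intensity lay between 5.38 and 5.48 on every array. The CR-MF mice BC4_11 and BC4_15 stood apart from the other CR-MF mice on the first principal component, and counts are given with and without them. The codes in the array names, read here as plate and well row, put 3 CR, 5 CR-MF and 5 MF mice on plate G150 and 1 mouse of each of these groups on plates G151 and G152. They put all 7 CR-MF mice, and no other mouse, in row H, so the CR-MF group and its row cannot be told apart.

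The liver adjusts to food supply through transcription. It makes, stores and exports fat, clears drugs and steroids with cytochrome P450 enzymes, and secretes plasma and urinary proteins. In mice many of these genes differ between the sexes, because the pattern of growth hormone release, pulsed in males and more even in females, sets them through the transcription factor STAT5. Interferons switch on another wide programme, of antiviral enzymes and GTPases, through an interferon-stimulated response element in promoters. In bulk tissue, fewer cells of a type and less RNA per cell cannot be told apart.

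Of 13993 genes tested, 24 (0.172%) differed from the midpoint at an adjusted p of 0.05, and in all 24 the CR-MF mean lay outside both parent means. Of these, 12 lay above (0.0858%) and 12 below (0.0858%). Those above were led by genes of male liver (Hsd3b5, Nudt7), genes induced by interferon (Gbp7, Herc6, Iigp1) and enzymes of drug and thyroid hormone metabolism (Aox3, Dio1). Those below were led by genes of female liver (Cyp2b9, Slc22a27, Fmo2, Nt5e) and genes of lipoprotein handling (Tm6sf2, Vldlr), with single subunits of the respiratory chain (Uqcr11) and the ribosome (Rpl38). In all 24 the CR-MF mean was also beyond the C mean on the same side, as it was for 6203 of the 7508 genes (82.6%) that lay outside by means alone. In Hsd3b5 and Obp2a the MF mean lay under the filter level of log2 4.32, where background limits the measurement, and Obp2a passed the filter through the CR-MF mice. Among the other called genes the distance from the midpoint ran from 1.23-fold to 4.63-fold, and the distance past the nearer parent mean from 1.15-fold to 4.48-fold, both upper values being those of Cyp2b9.

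Lying outside by means alone was common and says little, since 3700 genes (26.4%) were above both means and 3808 (27.2%) below. At an unadjusted p of 0.01 the contrast picked 511 genes. Of these, 240 were above both means (1.72%), 257 below (1.84%) and 14 between. The contrast tests the distance from the midpoint, not from each parent group. A stricter test, which asked that CR-MF differ from CR and from MF in the same direction, took the larger of the 2 p-values. By this limma test 287 genes passed at an unadjusted p of 0.05, with 148 above (1.06%) and 139 below (0.993%), and none passed at an adjusted p of 0.05. The smallest adjusted value of that test was 0.0988, for Tm6sf2. Among the 24 called genes, 21 had both differences at an unadjusted p of 0.05, and the exceptions were Hsd3b5, Nt5e and Osgin1, whose differences from CR (1.66, −0.54 and 0.29 log2 units) did not reach it.

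**Figure D1:**
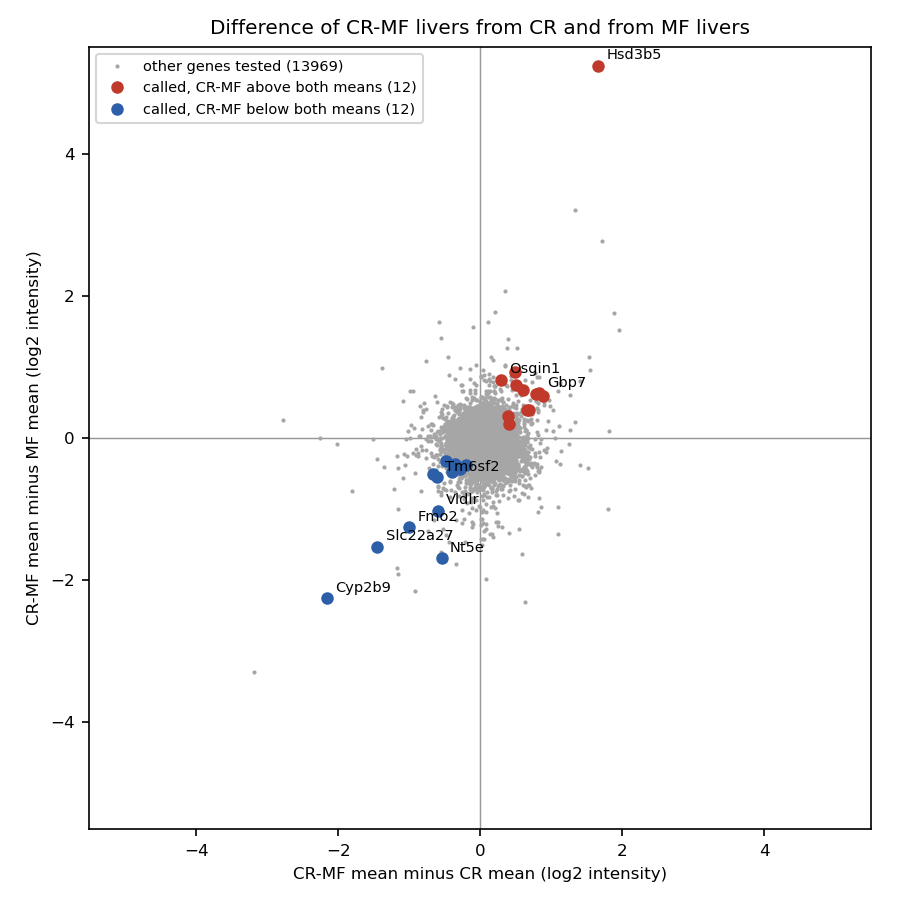
Each point is a gene, with the CR-MF mean minus the CR mean on the x axis and the CR-MF mean minus the MF mean on the y axis, both in log2 intensity. Genes in the upper right lie above both parent means and genes in the lower left below both, and the 24 called genes (12 red, 12 blue) are all in these corners.

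The number called depended on which mice were in the fit. Leaving out each of the 19 mice in turn gave between 5 and 41 called genes. It was 15 or lower without the CR mice B4_1 (9), B4_7 (12) and B4_3 (10), without the MF mice C4_7 (15), C4_15 (12) and C4_5 (14), and without the CR-MF mice BC4_1 (7), BC4_5 (15), BC4_9 (6), BC4_13 (5), BC4_15 (7) and BC4_11 (11). It rose to 41 without the CR mouse B4_13. Without both BC4_11 and BC4_15 it was 4. Each of the 24 genes kept its side and an unadjusted p below 0.01 whichever single mouse was left out, the largest such p being 0.000424. The 24 were picked from these same mice, so this was largely set in advance and is not separate support. Of the 23 that carry a full gene name, Tm6sf2, Uqcr11, Rpl38 and Tcn2 stayed called in all 19 omissions, as did Obp2a with the limit on its level just given. The other gene, 2610008E11Rik, is named only by its clone and is not described further.

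The plates allowed genes to be picked in some mice and looked up in others. Within plate G150 alone, 20 genes were called. The genes outside with an unadjusted p of 0.01 in G150 numbered 492. Of them, 33.7% were outside on the same side in G151 and 47.2% in G152, against 35.8% and 36.4% of all genes outside in G150. Outside on the opposite side were 21.3% in G151 and 16.7% in G152, against 30.7% and 29.9% of all genes outside in G150. Plates G151 and G152 hold 1 mouse per group, so these shares carry no test. The 23 named called genes were picked with all plates in the fit, and 13 of them were outside on their side in G151 and 22 in G152. The G151 mice were B4_13, BC4_3 and C4_15, and BC4_3 was the CR-MF mouse nearest to the other groups for several called genes, among them C4a, Cyp2b9 and Slc22a27.

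The fall with the smallest p of both differences was in Tm6sf2, a membrane protein of hepatocytes that is needed to load lipid onto very low density lipoprotein. Its log2 level was 10.95, 10.997, 11.30, 10.99 and 10.79 in the CR mice. It ran from 10.05 over a median of 10.41 to 10.69 in CR-MF and from 10.77 over 10.95 to 11.13 in MF. All 7 CR-MF mice lay below every CR and MF mouse, and CR and MF mice overlapped. The CR-MF mean of 10.40 ± 0.22 (SD, n = 7) was 1.53-fold below that of CR (11.01 ± 0.18, n = 5) and 1.47-fold below that of MF (10.95 ± 0.14, n = 7). Its difference from the midpoint was −0.58 log2 units (standard error 0.09, adjusted p = 0.00348), and it was −0.56, −0.56 and −0.79 on plates G150, G151 and G152.

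Vldlr, the receptor through which cells take up triglyceride-rich lipoproteins, was low in all groups and lowest in CR-MF. CR mice had log2 levels of 5.98, 6.40, 5.68, 5.85 and 5.63, CR-MF mice ran from 4.83 over 5.31 to 5.91, and MF mice from 5.46 over 6.60 to 6.70. Only BC4_3, at 5.91, lay within the range of the other groups. The contrast was −0.81 (standard error 0.16, adjusted p = 0.0277), and the CR-MF mean was 1.51-fold below CR and 2.03-fold below MF. The call was kept in 13 of 19 omissions of a mouse, with an adjusted p of at most 0.0789. Of the 22 tested genes of PPARγ and lipid droplets, the list that holds Vldlr, 5 lay above both means and 7 below. These shares were near those of all genes (26.4% and 27.2%). Apart from Vldlr, 1 lay below both means at an unadjusted p of 0.01, against 1.84% of all genes. That gene was Cd36, a fatty acid transporter, at means of 10.36 in CR, 10.20 in CR-MF and 11.25 in MF (contrast −0.60, adjusted p = 0.203).

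Uqcr11, a small subunit of complex III of the respiratory chain, had log2 levels of 11.51, 11.58, 11.40, 11.32 and 11.52 in CR mice. It ran from 10.53 over 10.79 to 11.03 in CR-MF and from 10.92 over 11.37 to 11.54 in MF. All 7 CR-MF mice were below every CR mouse and 5 of 7 below every MF mouse. The contrast was −0.58 (standard error 0.09, adjusted p = 0.00348), and the second probe cluster of this gene, which was not used for the call, gave −0.62. Both clusters may share probes. Of 31 tested subunits of complexes III to V, 15 lay below both means against 27.2% of all genes, none above and 16 between. Uqcr11 alone was called. Below both means at an unadjusted p of 0.01 were 4, against 1.84% of all genes. The median contrast of the 31 was −0.09, against −0.0039 over all genes. Atp5g1, which forms part of the rotor of ATP synthase, was at 12.28 ± 0.11 (SD, n = 7) in CR-MF, against 12.56 ± 0.03 (n = 5) in CR and 12.38 ± 0.11 (n = 7) in MF (contrast −0.19, adjusted p = 0.115). Cox7a1, a subunit of complex IV, was at 6.18 ± 0.35 (n = 7), 7.26 ± 0.24 (n = 5) and 6.41 ± 0.54 (n = 7) in the same order (contrast −0.65, adjusted p = 0.171). For both, all CR-MF mice were under all CR mice, but CR-MF and MF overlapped. Within G150 alone 6 of the 31 lay below both means and none above, with a median contrast of −0.03. Of all 13993 genes, 7935 lay above or below both means in G150, so the larger share below was not seen on that plate. Without BC4_11 and BC4_15, 11 of the 31 lay below both means, of which 1 had an unadjusted p of 0.01.

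Rpl38, a protein of the large ribosomal subunit, had log2 levels of 11.72, 11.57, 11.62, 11.54 and 11.66 in CR mice. It ran from 10.99 over 11.29 to 11.49 in CR-MF and from 11.37 over 11.70 to 11.73 in MF. All CR-MF mice were below all CR mice, and 5 of 7 were below all MF mice, the lowest MF mouse being C4_9. The contrast was −0.36 (standard error 0.06, adjusted p = 0.00348), and the other 3 probe clusters of the gene gave −0.39, −0.38 and −0.40. These clusters may share probes, so they may not be separate measurements. Of 42 tested ribosomal proteins, 30 lay below both means against 27.2% of all genes and 5 above, but the distances were small, with a median of −0.07. Apart from Rpl38, 3 lay below at an unadjusted p of 0.01, against 1.84% of all genes, and none was called. Rpl14 was at 6.42 in CR, 6.07 in CR-MF and 6.45 in MF (contrast −0.36, adjusted p = 0.208), and Rpl3 at 11.54, 11.36 and 11.58 (contrast −0.20, adjusted p = 0.209).

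Tcn2, the plasma carrier of vitamin B12, was at 11.60, 11.59, 11.70, 11.57 and 11.67 in CR mice, from 11.26 over 11.43 to 11.54 in CR-MF and from 11.63 over 11.84 to 11.95 in MF. The ranges of CR-MF and of the other groups did not meet. The difference was small in size, with a contrast of −0.30 (standard error 0.05, adjusted p = 0.00836) and a CR-MF mean 1.15-fold below CR and 1.31-fold below MF. Pgam1, a glycolytic enzyme, ran from 10.26 to 10.51 in CR-MF with an SD of 0.07, under all 7 MF mice, while 1 CR-MF mouse lay above the lowest CR mouse (contrast −0.36, adjusted p = 0.0350). Its call was kept in 11 of 19 omissions (adjusted p up to 0.0876). Tmem141, a membrane protein, had a contrast of −0.41 (standard error 0.07, adjusted p = 0.0134) and lost its call only without BC4_13 (adjusted p = 0.0545). Tbc1d25, a Rab GTPase-activating protein of autophagy, had a contrast of −0.44 (standard error 0.08, adjusted p = 0.0213), and lost its call without BC4_1, BC4_9, BC4_13 or BC4_15 (adjusted p up to 0.0775). In both genes, 6 of 7 CR-MF mice were below every CR and MF mouse. Over all genes tested, only 3 (0.0214%) had every CR-MF mouse below every CR and MF mouse, Fmo2, Tcn2 and Tm6sf2, and 2 (0.0143%) had every CR-MF mouse above, Aox3 and Obp2a, the latter admitted to the test by the CR-MF mice themselves.

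**Figure D2:**
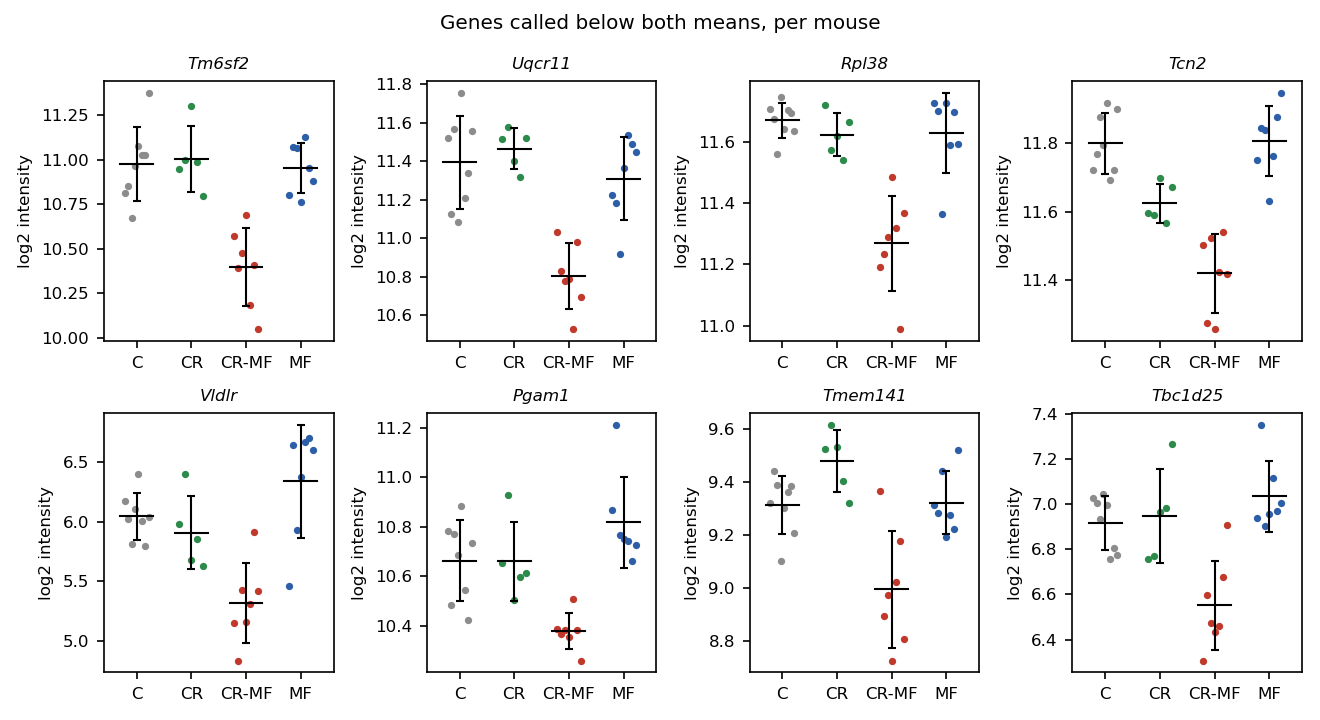
Log2 intensity of 8 genes called below both means, with 1 point per mouse, the mean as a horizontal line and bars of 1 SD for C (8), CR (5), CR-MF (7) and MF (7). In Tm6sf2 and Tcn2 the CR-MF points lie under all CR and MF points, and in the other 6 genes 1 or 2 CR-MF mice reach into the range of another group.

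Genes that differ between the sexes lay on opposite sides of the parent diets in CR-MF. These gene lists, like the others, were chosen with earlier results of these data known, so their shares are descriptive. Of 23 tested male-biased genes, 19 lay above both means against 26.4% of all genes, 12 of them at an unadjusted p of 0.01 against 1.72%, and 2 were called. Their median contrast was 0.56, and their median difference was 0.37 from CR and 0.82 from MF. By the stricter test of both differences, 4 of the 23 lay above at an unadjusted p of 0.05, against 1.06% of all genes. Of 21 tested female-biased genes, 17 lay below both means against 27.2% of all genes, 7 of them at an unadjusted p of 0.01 against 1.84%, and 4 were called. Their median contrast was −0.68, and their median difference was −0.54 from CR and −0.90 from MF. By the stricter test, 4 of the 21 lay below at an unadjusted p of 0.05, against 0.993% of all genes. All 19 and all 17 were also beyond the C mean, against 82.6% of all genes that lay outside by means alone. Leaving out 1 mouse changed the 12 to between 9 (without B4_7) and 15, and the 7 to between 6 (without BC4_1) and 10. Without BC4_11 and BC4_15 there were 10 and 8.

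Hsd3b5, a hydroxysteroid dehydrogenase of male liver, showed the widest spread in CR. Its log2 levels were 8.75, 5.28, 3.92, 10.22 and 9.97 in the CR mice B4_1, B4_5, B4_7, B4_13 and B4_3, from 7.33 over 9.83 to 10.51 in CR-MF, and from 3.21 over 4.05 to 5.23 in MF. Every CR-MF mouse was above every MF mouse, but only 2 of 7 were above every CR mouse. The CR-MF mean of 9.29 ± 1.34 (SD, n = 7) exceeded that of CR (7.63 ± 2.86, n = 5) by 1.66 log2 units, less than the SD in CR. This distance of 3.16-fold was 2.10-fold without B4_5, 1.66-fold without B4_7, 4.95-fold without B4_13 and 4.745-fold without B4_3. The contrast was 3.45 (standard error 0.73, adjusted p = 0.0469), and it was called in 4 of 19 omissions (adjusted p up to 0.124). The MF mean of 4.04 lies under the filter level of 4.32, where background limits what can be measured. On plates G151 and G152 the CR-MF mouse lay between the CR and MF mice for this gene.

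Nudt7, a peroxisomal hydrolase of coenzyme A, was at 10.50, 11.26, 9.80, 11.15 and 10.45 in CR mice, in the same order of mice as above. CR-MF mice ran from 10.90 over 11.15 to 11.27 and MF mice from 9.93 over 10.14 to 10.46. As for Hsd3b5, all CR-MF mice exceeded all MF mice and 2 of 7 exceeded all CR mice, and the SD was 0.59 in CR against 0.14 in CR-MF. The contrast was 0.71 (standard error 0.14, adjusted p = 0.0277), kept in 12 of 19 omissions. Susd4, a complement regulator, had means of 9.35 ± 0.58 (SD, n = 7) in CR-MF, 8.998 ± 0.59 (n = 5) in CR and 7.28 ± 0.66 (n = 7) in MF. Its contrast of 1.21 did not pass (adjusted p = 0.0859), and the difference from CR, 0.35, was within the SD of either group.

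All 5 tested major urinary proteins, the pheromone carriers that male liver secretes in bulk, lay above both means with an unadjusted p of 0.01, against 1.72% of all genes. None was called. Mup21 was at 7.88 ± 0.31 (SD, n = 7) in CR-MF, against 7.36 ± 0.64 (n = 5) in CR and 6.62 ± 0.40 (n = 7) in MF (contrast 0.89, adjusted p = 0.0832). Mup5 was at 5.87, 5.54 and 5.44 in the same order (contrast 0.38, adjusted p = 0.107) and Mup20 at 13.17, 12.81 and 12.89 (contrast 0.32, adjusted p = 0.189). The genes of this family are near copies, so a probe can read several of them, and the 5 are not 5 separate measurements. The other 16 members of the list had no probe cluster of their own here.

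Of the female-biased genes, Cyp2b9, a cytochrome P450, showed the largest called distance below. CR mice had log2 levels of 12.52, 12.22, 12.56, 11.36 and 12.03, and MF mice ran from 11.36 over 12.42 to 12.66. CR-MF mice were spread from 6.17 in BC4_5 over a median of 10.74 to 11.52 in BC4_3, and 5 of 7 were under every CR and MF mouse. The CR-MF mean of 9.97 ± 1.88 (SD, n = 7) was 4.48-fold below CR and 4.78-fold below MF. Without BC4_5 these distances were 2.89-fold and 3.08-fold, and the contrast was −1.58 (adjusted p = 0.0102). With all mice the contrast was −2.21 (standard error 0.45, adjusted p = 0.0423), called in 7 of 19 omissions (adjusted p up to 0.107). Cyp2b13, a close copy chosen here after its values were seen, was at 7.57, 4.39 and 7.69 in CR, CR-MF and MF (contrast −3.24, adjusted p = 0.107), its CR-MF mean being close to the filter level, and probes may not fully separate the pair.

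Slc22a27, an organic anion transporter, was at 8.49, 8.69, 9.51, 7.25 and 7.20 in CR mice, from 5.98 over 6.71 to 7.62 in CR-MF and from 7.69 over 8.17 to 8.96 in MF. All CR-MF mice were below all MF mice and 5 of 7 were below all CR mice. The contrast was −1.49 (standard error 0.28, adjusted p = 0.0213), and the call was lost without BC4_1, BC4_9 or BC4_13 (adjusted p up to 0.0752). Fmo2, a flavin monooxygenase, was at 8.99, 8.70, 10.19, 8.70 and 9.23 in CR mice, from 7.77 over 8.03 to 8.62 in CR-MF and from 8.83 over 9.29 to 10.18 in MF. No CR-MF mouse reached a CR or MF mouse, and the CR-MF mean was 2-fold below CR and 2.39-fold below MF. The contrast was −1.13 (standard error 0.24, adjusted p = 0.0469), called in 4 of 19 omissions. Nt5e, the cell-surface enzyme that makes adenosine from AMP, was at 7.47, 8.05, 8.84, 6.93 and 7.38 in CR and from 6.93 over 7.14 to 7.50 in CR-MF. No CR-MF mouse was under every CR mouse, and all 7 were under every MF mouse, whose lowest value was 7.85. Its contrast of −1.12 (standard error 0.23, adjusted p = 0.0423) therefore rests on the MF side.

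The CR mice themselves were split on these genes, which bears on the CR mean. B4_7 had the lowest male-biased score of the CR mice (−0.90) and the highest female-biased score (0.86). B4_13 (0.83 and −0.59) and B4_3 (0.74 and −0.50) lay among the CR-MF mice. B4_13 and B4_3 were also the only CR mice on plates G151 and G152, in well row G. The other 3 CR mice were on G150 in row F, so this split and the plates cannot be told apart. On both G151 and G152 the CR-MF mouse lay between the CR and MF mice for Hsd3b5, Susd4 and Mup21. For Nudt7, Cyp2b9, Slc22a27 and Nt5e it did so on G151 alone, and Fmo2 lay below on every plate. A score is the mean over the members of a list of each log2 value minus the mean of its gene over all 27 arrays. The male-biased score ran from 0.42 to 0.97 in CR-MF and from −0.96 to −0.17 in MF. The female-biased score ran from −1.03 to −0.31 in CR-MF and from −0.20 to 0.90 in MF. CR-MF and MF did not overlap on either score, and both overlapped with CR on each. The 300-base promoters of RefSeq (GRCm38.p6, 250 bases before and 50 after each start) were searched for the STAT5 motif TTCNNNGAA. This motif reads the same on both strands. Of the genes with such a promoter, 2 of 17 male-biased (11.8%) and 4 of 16 female-biased genes (25%) held it, against 8.42% of 11058 tested genes. So did 6 of 28 interferon genes (21.4%), described below, and 0 of 3 major urinary proteins.

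**Figure D3:**
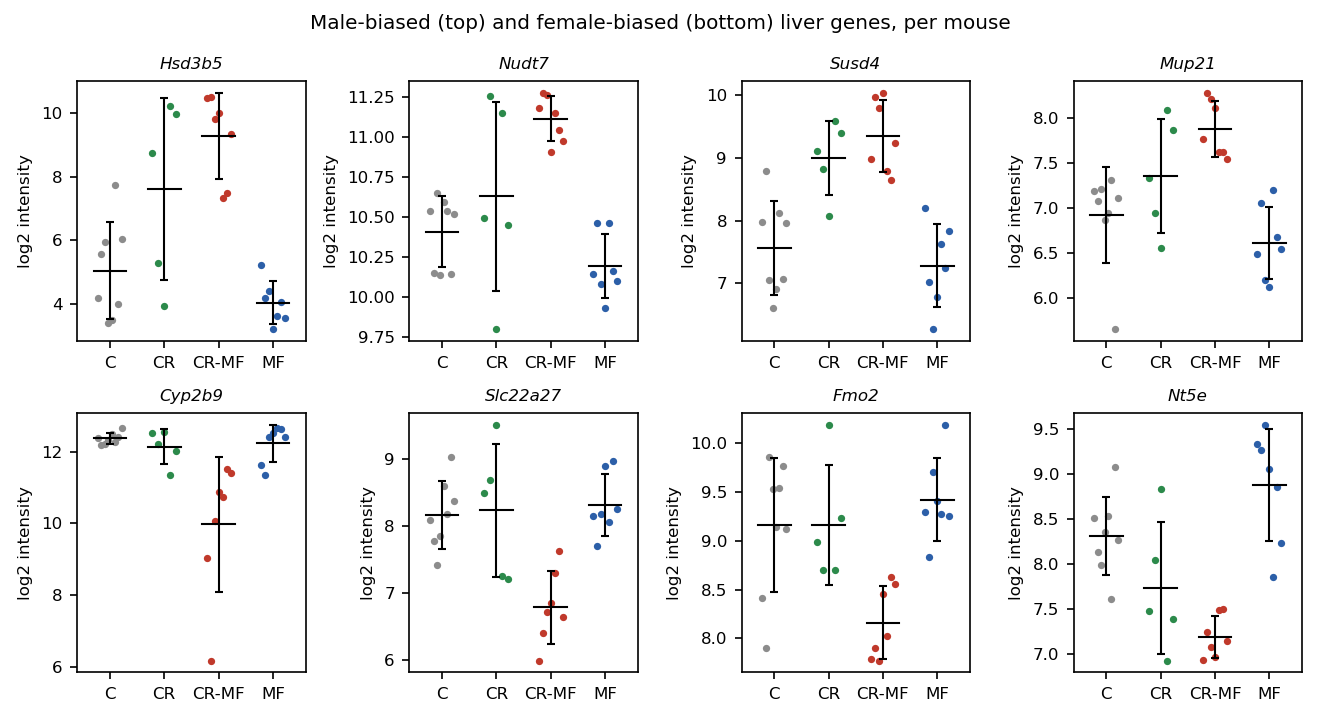
Log2 intensity per mouse of Hsd3b5, Nudt7, Susd4 and Mup21, of the male-biased and urinary protein lists, in the top row, and of the female-biased Cyp2b9, Slc22a27, Fmo2 and Nt5e in the bottom row, with the mean and 1 SD. CR-MF lies highest on average in the top row and lowest in the bottom row. In every gene but Susd4 and Cyp2b9, the CR mice are spread over a range wider than the distance between the CR-MF and MF means.

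Genes induced by interferon stood higher in CR-MF than in either parent group. Their list, too, was chosen with earlier results of these data known. Of 38 tested, 37 lay above both means against 26.4% of all genes, none below and 1 between. At an unadjusted p of 0.01 there were 22 above against 1.72% of all genes, and 3 were called above (Iigp1, Gbp7 and Herc6) against 0.0858%. The median contrast was 0.50 against −0.0039 over all genes. Of the 37, 30 were also above the C mean, so that 7 were higher in C than in CR-MF. Of all genes outside by means alone, 82.6% were also beyond the C mean. The number at an unadjusted p of 0.01 ranged from 12, without BC4_1, to 26 when 1 mouse was left out, and was 15 without BC4_11 and BC4_15.

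Many of these genes carry the response element in their promoters. With the motif GAAANNGAAA searched on both strands of the 300-base windows of RefSeq, 17 of the 28 tested interferon genes that had a window held it (60.7%), against 409 of 11058 tested genes (3.7%) and 3.44% of all 32851 promoters. Among the called interferon genes, Gbp7 held it, Herc6 had a window without it and Iigp1 had no window. The motif can share its letters GAA with the STAT5 motif. The stretches shown lie wholly before the start of the gene, on the strand of the gene in GRCm38.p6, with the motif in capitals. Of the 9 interferon genes at an unadjusted p of 0.01 that hold the motif wholly before the start, 5 are shown as examples. Ifit1 had the largest contrast, Gbp7 was called, Ifit3 and Isg15 are described with them, and Ifit3b is shown because its stretch is the same as that of Ifit3. Rpl38 is shown beside them because it holds the same motif and lay below both means.
Ifit1, chr19:34640769-34640848, plus strand: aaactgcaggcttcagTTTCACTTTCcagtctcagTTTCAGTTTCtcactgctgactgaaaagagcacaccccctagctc
Ifit3, chr19:34583372-34583451, plus strand: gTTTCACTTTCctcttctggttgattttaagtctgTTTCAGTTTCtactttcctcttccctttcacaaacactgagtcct
Ifit3b, chr19:34607768-34607847, plus strand: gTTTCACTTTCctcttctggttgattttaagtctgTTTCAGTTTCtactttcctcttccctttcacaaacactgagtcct
Isg15, chr4:156200840-156200919, minus strand: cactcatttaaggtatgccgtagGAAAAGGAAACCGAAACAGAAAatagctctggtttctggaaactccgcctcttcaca
Gbp7, chr3:142530248-142530327, plus strand: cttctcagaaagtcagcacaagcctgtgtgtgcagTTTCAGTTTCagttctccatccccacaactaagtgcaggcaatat
Rpl38, chr11:114668444-114668523, plus strand: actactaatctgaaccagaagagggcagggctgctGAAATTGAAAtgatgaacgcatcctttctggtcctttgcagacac

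Among the sensors and effectors, Ifit1, an antiviral RNA-binding protein whose promoter stretch holds the motif 2 times, had the largest distance. CR mice had log2 levels of 6.22, 7.64, 6.11, 7.07 and 6.52, CR-MF mice ran from 7.50 over 8.04 to 9.28 and MF mice from 6.54 over 7.57 to 7.72. In 6 of 7 CR-MF mice it was above every CR and MF mouse. The CR-MF mean was 2.93-fold above CR and 1.95-fold above MF, with a contrast of 1.26 (standard error 0.28) that missed the threshold (adjusted p = 0.0539). Ifih1, the cytosolic sensor of double-stranded RNA, was at 8.92, 9.39 and 8.90 in CR, CR-MF and MF (contrast 0.48, adjusted p = 0.0903). Further members at an unadjusted p of 0.01 had contrasts of 0.88 for Ifit3, 0.85 for Ifit3b, 0.62 for Isg15 and 0.73 for Mx2, none of them called. Ifit3 and Ifit3b are near copies, and their values may come from shared probes.

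Herc6, the ligase that attaches Isg15 to other proteins, was at 7.32, 8.47, 7.90, 7.94 and 7.62 in CR mice, from 8.12 over 8.69 to 9.42 in CR-MF, and in MF within the narrow range of 8.05 to 8.22. In 5 of 7 CR-MF mice it was above every CR and MF mouse. The contrast was 0.74 (standard error 0.16, adjusted p = 0.0475), called in 4 of 19 omissions. Gbp7, a guanylate-binding protein with the motif 1 time in its stretch, was at 7.54, 8.35, 7.72, 8.21 and 7.72 in CR mice, from 8.09 over 8.79 to 9.33 in CR-MF and from 7.60 over 8.19 to 8.61 in MF. Here 4 of 7 CR-MF mice were above all others, and the contrast was 0.73 (standard error 0.16, adjusted p = 0.0469), called in 5 of 19 omissions. Iigp1, an immunity-related GTPase, was at 9.78, 10.10, 9.91, 10.04 and 9.62 in CR mice, from 10.06 over 10.65 to 10.98 in CR-MF and from 9.96 over 10.22 to 10.26 in MF. Its contrast was 0.52 (standard error 0.11, adjusted p = 0.0423), called in 7 of 19 omissions. In all 3 genes the CR-MF mice BC4_3 and BC4_5 were among the lowest of the group, and on plate G151, which holds BC4_3, the contrasts were 0.08, 0.0017 and 0.06.

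The interferon score ran from −0.63 over a median of −0.53 to 0.16 in CR, from −0.27 over 0.24 to 0.85 in CR-MF and from −0.48 over −0.11 to 0.12 in MF. The groups overlapped. BC4_1 (0.85) and BC4_9 (0.75) were the highest mice, BC4_3 (−0.27) and BC4_5 (−0.20) lay among the MF mice, and B4_5 (0.16) was the highest CR mouse. C mice ran from −0.19 over 0.07 to 0.54. Immune cell markers are given beside this. Of 16 T and NK cell markers, 6 lay above both means and none below, against 26.4% and 27.2% of all genes. None had an unadjusted p of 0.01. The median difference of the 16 markers was 0.37 from CR and −0.03 from MF. Their summed level, as log2 of the summed intensities, ran from 9.16 to 9.38 in CR, from 9.13 to 11.1 in CR-MF and from 9.26 to 11.1 in MF. The CR-MF mouse highest in these markers was BC4_11 (score 1.20). The T and NK scores of BC4_1 and BC4_9 were −0.01 and −0.52. Of 19 Kupffer cell and macrophage markers, 3 lay above and 1 below, against 26.4% and 27.2% of all genes. The summed level of the 19 ran from 12.99 to 13.4 in CR, from 13.002 to 14.6 in CR-MF and from 13.3 to 14.6 in MF. All 9 genes of MHC class II presentation lay between CR and MF, against 46.3% of all genes. The median difference of the 9 was 0.77 from CR and −0.38 from MF. The part of immune cells in the interferon values was not tested.

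**Figure D4:**
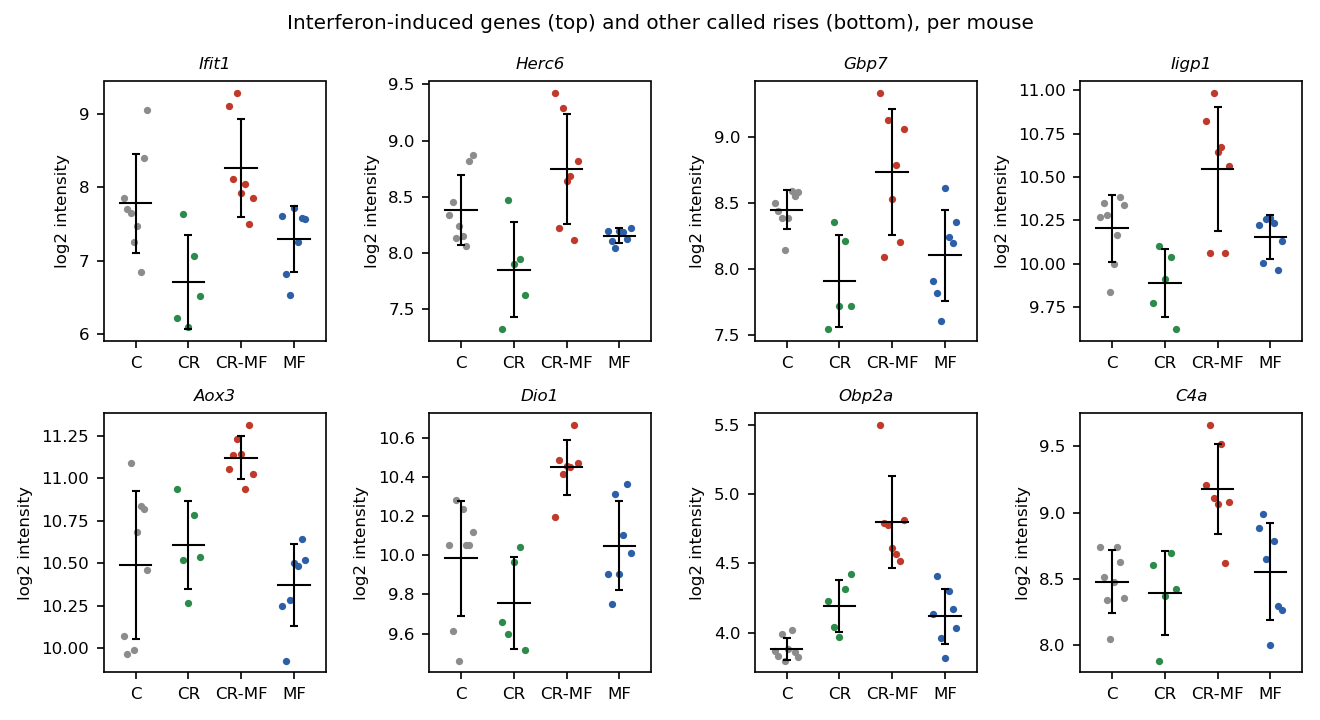
Log2 intensity per mouse of the interferon-induced genes Ifit1, Herc6, Gbp7 and Iigp1 in the top row and of the called genes Aox3, Dio1, Obp2a and C4a in the bottom row, with the mean and 1 SD. In the top row the upper CR-MF mice exceed the CR and MF mice while the lowest lie among MF and C mice, and in Aox3 and Obp2a all 7 CR-MF points lie above the CR and MF points.

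Among enzymes of metabolism, Aox3, an aldehyde oxidase, was at 10.94, 10.52, 10.27, 10.79 and 10.54 in CR mice, from 10.94 over 11.14 to 11.31 in CR-MF and from 9.93 over 10.49 to 10.64 in MF. The highest CR mouse, B4_1, and the lowest CR-MF mouse, BC4_15, nearly met, at 10.938 and 10.940. The contrast was 0.63 (standard error 0.13, adjusted p = 0.0469), and in spite of the separation of the groups it was called in 1 of 19 omissions (adjusted p up to 0.124). Dio1, the deiodinase that activates thyroid hormone in liver, was at 9.66, 9.60, 9.97, 10.04 and 9.52 in CR mice, from 10.19 over 10.46 to 10.67 in CR-MF and from 9.75 over 10.01 to 10.36 in MF. All CR-MF mice exceeded all CR mice, and 6 of 7 exceeded all MF mice. The contrast was 0.55 (standard error 0.11, adjusted p = 0.0277), kept in 12 of 19 omissions.

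Obp2a, a lipocalin that binds small hydrophobic molecules, was near the floor of the arrays. CR mice had log2 levels of 4.23, 4.04, 3.97, 4.31 and 4.42, CR-MF mice ran from 4.52 over 4.78 to 5.50 and MF mice from 3.81 over 4.14 to 4.41. All CR-MF mice were above the filter level of 4.32 and above all CR and MF mice, whereas outside this group only B4_3 and C4_7 were above that level. The gene thus passed the filter through the group in which it is high, and its distance from CR and MF is given without a fold for that reason. Osgin1, a stress-induced growth inhibitor, was at 9.75 ± 0.28 (SD, n = 7) in CR-MF, against 9.46 ± 0.28 (n = 5) in CR and 8.93 ± 0.16 (n = 7) in MF, with 3 of 7 CR-MF mice above all CR mice (contrast 0.56, adjusted p = 0.0469). Sri, a calcium-binding protein, was at 9.99 ± 0.17 (n = 7), 9.58 ± 0.14 (n = 5) and 9.79 ± 0.10 (n = 7) in the same order (contrast 0.30, adjusted p = 0.0469).

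C4a, the sex-limited isotype of complement component 4, was at 8.61, 7.88, 8.37, 8.70 and 8.42 in CR mice, from 8.62 over 9.11 to 9.66 in CR-MF and from 8.01 over 8.65 to 8.99 in MF. In 6 of 7 CR-MF mice it exceeded every CR and MF mouse, BC4_3 being the exception. The contrast was 0.70 (standard error 0.14, adjusted p = 0.0418), called in 7 of 19 omissions, and probes may also read its near copy C4b. Of 30 tested acute-phase and complement proteins, 13 lay above both means against 26.4% of all genes, 2 below against 27.2% and 15 between. Above at an unadjusted p of 0.01 were 6, against 1.72% of all genes, and of these C4a was called. The median contrast was 0.06 and turned to −0.02 without BC4_11 and BC4_15 and to −0.0058 within plate G150. The largest contrasts in the list, of the iron hormone Hamp (0.99) and of Saa3 (0.78), came with wide spread (unadjusted p = 0.103 and 0.0684 by limma). The smallest p after that of C4a were those of C9 and C8b, parts of the membrane attack complex. C9 was at 10.92, 11.49 and 11.18 in CR, CR-MF and MF (contrast 0.44, adjusted p = 0.148) and C8b at 11.55, 11.92 and 11.17 (contrast 0.56, adjusted p = 0.189). C6, C8a and C8b are also in the male-biased list, so the lists are not separate evidence.

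Enzymes that make fatty acids lay lower in CR-MF than in CR, with CR-MF near MF. Of 25 tested genes of de novo lipogenesis, 10 lay below both means against 27.2% of all genes, none above and 15 between, with a median contrast of −0.20. None was called, and 3 lay below at an unadjusted p of 0.01, against 1.84% of all genes. Elovl6, a fatty acid elongase, was at 10.39 ± 0.47 (SD, n = 7) in CR-MF, against 11.57 ± 0.41 (n = 5) in CR and 10.65 ± 0.56 (n = 7) in MF (contrast −0.72, adjusted p = 0.147). Acaca, acetyl-CoA carboxylase, was at 9.18, 10.01 and 9.35 in the same order (contrast −0.50, adjusted p = 0.185), and Pklr, liver pyruvate kinase, at 11.12, 11.64 and 11.41 (contrast −0.40, adjusted p = 0.189). For Elovl6 and Acaca every CR-MF mouse was below every CR mouse, while no CR-MF mouse was below every MF mouse. The difference of CR-MF from MF, of −0.26 for Elovl6 and −0.17 for Acaca, was within the SD of either group. Without BC4_11 and BC4_15 the numbers were 9 below and 1 at an unadjusted p of 0.01.

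**Figure D5:**
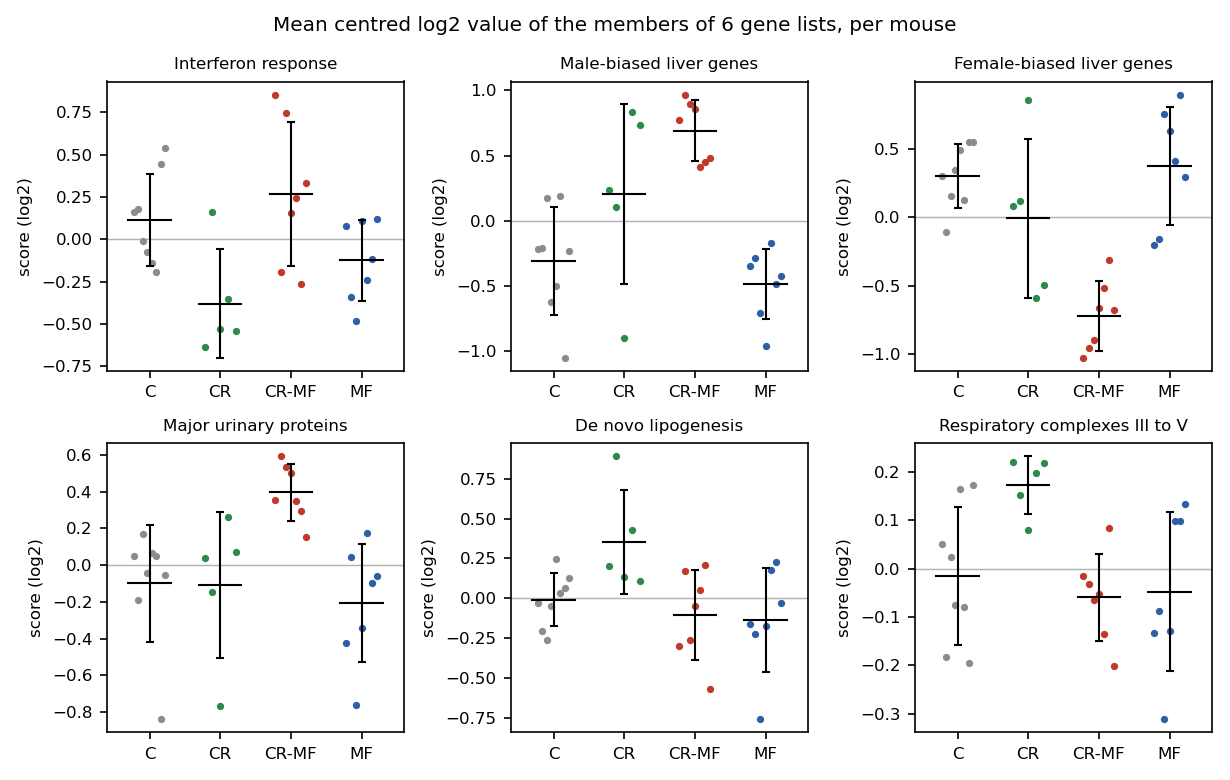
Score of 6 gene lists per mouse, in log2 units relative to the mean over all 27 arrays, with the mean and 1 SD per diet group. The CR-MF mean is highest in the male-biased list and lowest in the female-biased list, with no overlap with MF, while in the interferon, lipogenesis and respiratory lists the CR-MF mice overlap with both CR and MF mice.

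The called genes nearest to the threshold were Osgin1, Sri and Herc6 (adjusted p = 0.0469, 0.0469 and 0.0475), and the first to miss it were Gstm2, Ifit1 and Naif1 (adjusted p = 0.0514, 0.0539 and 0.0539). Gstm2, a glutathione transferase, was at 9.29 ± 0.24 (SD, n = 7) in CR-MF, against 9.88 ± 0.08 (n = 5) in CR and 9.86 ± 0.36 (n = 7) in MF, and all CR-MF mice were below all CR mice. Of the genes that missed the threshold but had the smallest p for both differences, Ccdc25 (contrast 0.34, adjusted p = 0.0832) and Rai1, a transcriptional regulator (contrast 0.26, adjusted p = 0.0896), lay above. C1qtnf1, a secreted protein of the adiponectin family (contrast −0.30, adjusted p = 0.0903), and Tbc1d17, a Rab GTPase-activating protein (contrast −0.35, adjusted p = 0.0877), lay below. Ccdc25 exceeded every CR and MF mouse in 6 of 7 CR-MF mice, and Tbc1d17 was under every one in 6 of 7.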

How the data were processed

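RNA was isolated from 27 livers and hybridised to 1 array each. Per the labels, the authors made the deposited log2 values per transcript cluster by Robust Multiarray Average (RMA). Of 35556 clusters, 21218 had 1 symbol, 1881 several and 12457 none, and the last 2 kinds were not analysed by name. The cluster with the highest mean stood for a gene, giving 18820 genes, of which 18790 matched RefSeq (GRCm38.p6). Genes above an intensity of 20 (log2 4.32) on at least 5 arrays and with an interquartile range above 0.1 were kept (13993). Group means of all 27 arrays were fitted with limma 3.58.1 (R 4.3.3; lmFit, then eBayes with trend, on 23 residual degrees of freedom), with Benjamini-Hochberg adjustment over all genes kept. All tests were two-sided.

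The number of arrays limits precision. Members, gene lists and tests were chosen with earlier results of these data known. Named genes were up to 15 per direction, called and outside, ranked by the distance past the nearer mean. Places left were filled with the genes at an unadjusted p of 0.01 whose larger p of both differences was smallest. The 3 members with the smallest p of each described list were added. Predicted genes were left out. The fit was tested on simulated data. Alternatives were other normalizations, filters, variance moderation, array weights, samples, plate or animal number as a block, another threshold and each mouse left out. Gene lists that are not described had at most 1 called gene per direction.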

Additional observations from a re-analysis of the deposited data

Results flagged for a closer look

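In 3 of 90 groups checked (30 genes in CR, CR-MF and MF), 1 mouse lay far from the rest of its group, where chance alone sets apart about 1 group in 20. For Obp2a, the CR-MF mouse BC4_1 (5.50) was separated from the next highest (4.81) by 0.702 of the range of the group. For Rpl38, the MF mouse C4_9 (11.4) lay under the next lowest (11.6) by 0.623 of the range. For Pgam1, the MF mouse C4_7 (11.2) lay above the next highest (10.9) by 0.624 of the range.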

How the results depend on the processing

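The number called moved with the processing. The 24 genes kept their sides, but they were picked from these same arrays, so this was largely set in advance. The number called was 14 with robust moderation, 133 with array weights (130 of them outside both means), 8 with CR, CR-MF and MF mice only, 13 with plate as a block, 4 without BC4_11 and BC4_15 (chosen after seeing the data) and 70 at an adjusted p of 0.1 (69 outside). The cause was not tested. The number called ran from 5 to 41 with any 1 mouse left out. It was between 17 and 30 under the other settings, except for the block on animal number given below. The test of both differences gave between 0 and 2 genes with 1 mouse left out (2 without C4_9 and 2 without BC4_13), 1 at an adjusted p of 0.1 and 0 otherwise. In every setting, each of the 24 genes that was tested lay on the same side at an unadjusted p of 0.01, with 2 of them removed by the filter at an intensity of 100. What mice with the same animal number share beyond that number is not stated in the labels. Their deviations correlated above 0.1 in 7 of 14 pairs (median 0.108), against 23 of 105 pairs with other numbers (median −0.0156). With a replicate block on it, 0 genes were called by limma, against 457 at an unadjusted p of 0.01.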

Other observations

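Some markers of bile duct and vascular cells had their lowest mean in CR-MF. Of 12 endothelial markers, 6 lay below both means against 27.2% of all genes and none above, with Oit3, a gene of sinusoidal endothelium, at 8.95 in CR, 8.45 in CR-MF and 8.75 in MF (contrast −0.40, standard error 0.11, adjusted p = 0.126) and Eng, a TGFβ coreceptor, at 9.88, 9.63 and 9.82 (contrast −0.22, adjusted p = 0.259). Of 5 cholangiocyte markers, 3 lay below and 1 above, against 27.2% and 26.4% of all genes, and Muc1 lay between. The gene above was Sox9, a transcription factor of duct cells, at 7.26, 7.44 and 7.10 (contrast 0.27, adjusted p = 0.514). Below were Krt19 (contrast −0.29, adjusted p = 0.368), Krt7, a keratin of bile ducts, at 5.62, 5.34 and 5.72 (contrast −0.33, adjusted p = 0.209) and Epcam at 5.04, 4.88 and 5.66 (contrast −0.47, adjusted p = 0.237). None of these genes was called.

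Several cytochrome P450 genes that are not in the sex-biased lists also lay outside. Cyp2c39 was at 7.74, 7.09 and 8.25 in CR, CR-MF and MF (contrast −0.90, adjusted p = 0.0832), Cyp2a22 at 7.97, 6.81 and 8.73 (contrast −1.54, adjusted p = 0.150) and Cyp2c38 at 10.78, 10.20 and 10.88 (contrast −0.64, adjusted p = 0.111). Of 34 tested genes of families 1 to 3, 14 lay above both means, 10 below and 10 between, with 5 and 6 of them at an unadjusted p of 0.01 (26.4%, 27.2%, 1.72% and 1.84% of all genes). Of 31 genes that transfer and trim N-glycans, 13 lay below and 4 above (27.2% and 26.4% of all genes), with Ddost, a subunit of oligosaccharyltransferase, at 10.70, 10.34 and 10.54 (contrast −0.28, adjusted p = 0.0724). Psma7, a proteasome subunit, was at 8.38, 8.52 and 8.22 (contrast 0.22, adjusted p = 0.0840), and 17 of 30 proteasome subunits lay above and none below (26.4% and 27.2% of all genes). These genes were chosen after their values were seen. Without a gene symbol, 9426 transcript clusters were tested with the others, and 15 of them were called, 7 above and 8 below.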
